A study of Mus musculus with 2 samples.

Results

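Metallothioneins and zinc transporters were followed across the cell classes of mouse small intestinal organoids, epithelial structures grown in culture. The 7 genes were chosen by name as the listed rows of the deposited single-cell matrix, out of 31053 genes: Mt1 (ENSMUSG00000031765), Mt2 (ENSMUSG00000031762), Mt4 (ENSMUSG00000031757), Slc30a1 (ENSMUSG00000037434), Slc30a10 (ENSMUSG00000026614), Slc39a4 (ENSMUSG00000063354) and Slc39a5 (ENSMUSG00000039878). All 7 reached the minimum of 10 unique molecular identifiers (UMIs, counted RNA molecules) over both barcode sets and entered every comparison.

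Per the labels, a control library and a melatonin-treated library were made, each a pool of 3 organoid lines at culture day 3, so the lines cannot be told apart. The 3 deposited files of the control sample were byte for byte those of the melatonin sample, and the single matrix carries barcodes with the suffix 1 or 2. No label ties a suffix to a treatment, so no treatment was compared. Values are given for suffix 1 (set 1) and suffix 2 (set 2), numbers that refer to barcodes and not to the names of the libraries, and a ratio of set 2 over set 1 has an arbitrary direction.

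Metallothioneins are small cysteine-rich proteins that bind zinc and copper and buffer free metal in the cell. Zinc enters the cytosol through ZIP transporters, the Slc39 family, and leaves it through ZnT transporters, the Slc30 family. The transcription factor MTF1 senses zinc, binds metal response elements and is known to drive Mt1, Mt2 and Slc30a1, while ZIP4, encoded by Slc39a4, takes up dietary zinc on the luminal side of the gut epithelium.

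A barcode was kept as a cell if it had 500 or more genes, 1000 or more UMIs and no more than 20% of its UMIs from the mitochondrial genome. This left 2300 cells in set 1 (median 29872 UMIs, 61628537 in all) and 1766 in set 2 (median 28759, 51111519 in all). Cells were placed in classes by summed UMIs of marker genes per 10000 UMIs of a cell, and no member was a marker. The classes held, in set 1 and set 2, 131 and 186 enterocyte-like cells, 267 and 268 enteroendocrine-like cells, 33 and 41 goblet and Paneth-like cells, 23 and 25 revival-like cells, 1360 and 655 cells in G2 and mitosis, 161 and 252 in S phase, and 291 and 304 other cells. Among the 10 genes with the highest fold, each named class had 3 to 7 of its own markers, with squamous-type genes such as Crct1 and Lor also leading the revival-like cells. The same markers set the gates, so their presence follows from the gating and does not test the class names. Summed over all kept cells, markers of immune, mesenchymal and endothelial cells reached 0.406 to 4.93 UMI counts per 1000000 UMIs (CPM), those of tuft cells 8.6 and 1.51 CPM and those of microfold cells 25.4 and 35.9 CPM. Barcode sequences found under both suffixes numbered 29 in the whole matrix and 0 among kept cells. With 1 library per set there is no replicate, and cells are not replicates. All intervals are 95% intervals of counting error only (exact Poisson for levels, Clopper-Pearson for shares, exact conditional for ratios), and no difference was tested.

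The promoters of 4 members are shown because Mt1 and Mt2 varied together across cells while Slc30a1 and Slc30a10 had another order over the classes, and because the metal response element is the known shared control of 3 of these genes. Sequences are RefSeq's for mouse (GRCm38.p6), 5′ to 3′ on the gene's strand, which is the plus strand for all 4, from 250 bases before to 50 after an annotated start. Capitals mark the 7-letter core of the element, TGCACNC or TGCGCNC, read on either strand. The Mt1 window lies at chr8:94178839-94179138, Mt2 at chr8:94172368-94172667, Slc30a1 at chr1:191906531-191906830 and Slc30a10 at chr1:185454598-185454897.
Mt1: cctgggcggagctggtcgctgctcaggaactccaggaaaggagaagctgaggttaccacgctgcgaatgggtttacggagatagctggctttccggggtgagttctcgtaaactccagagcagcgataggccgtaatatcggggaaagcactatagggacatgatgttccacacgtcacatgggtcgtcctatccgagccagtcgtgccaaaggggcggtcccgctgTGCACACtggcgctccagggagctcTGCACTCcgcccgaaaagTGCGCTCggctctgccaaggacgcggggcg
Mt2: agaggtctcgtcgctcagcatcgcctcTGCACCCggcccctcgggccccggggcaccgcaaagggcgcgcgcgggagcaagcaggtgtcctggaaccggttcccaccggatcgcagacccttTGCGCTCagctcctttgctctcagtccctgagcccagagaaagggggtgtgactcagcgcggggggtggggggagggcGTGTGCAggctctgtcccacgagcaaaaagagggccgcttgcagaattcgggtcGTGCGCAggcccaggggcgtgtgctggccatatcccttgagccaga
Slc30a1: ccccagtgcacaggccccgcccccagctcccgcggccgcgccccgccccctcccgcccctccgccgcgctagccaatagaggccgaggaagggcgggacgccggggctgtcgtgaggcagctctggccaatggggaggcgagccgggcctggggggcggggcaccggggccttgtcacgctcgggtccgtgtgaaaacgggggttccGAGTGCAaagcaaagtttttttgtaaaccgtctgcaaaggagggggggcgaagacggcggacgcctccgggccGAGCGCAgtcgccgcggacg
Slc30a10: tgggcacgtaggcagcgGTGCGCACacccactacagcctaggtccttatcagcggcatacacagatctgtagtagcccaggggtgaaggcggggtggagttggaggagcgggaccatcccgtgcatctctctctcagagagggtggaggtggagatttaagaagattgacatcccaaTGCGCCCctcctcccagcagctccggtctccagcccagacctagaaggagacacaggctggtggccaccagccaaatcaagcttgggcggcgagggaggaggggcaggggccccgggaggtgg

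The Mt2 window held 4 matches, 2 on each strand. The Mt1 window held 3, all on the gene's own strand, and the Slc30a1 window held 2, both on the other strand. The Slc30a10 window held 3, of which a pair of matches on opposite strands overlap in a single run of capitals. Of 32851 mouse promoter windows of the same length, 25.7% held at least 1 match, 7.11% at least 2, 1.97% at least 3 and 0.517% at least 4. Mt4 had 1 match, and of 2 windows annotated for Slc39a5 one had 1 and the other 0. With TGCACNC alone, Mt1 and Mt2 kept 2 matches each, Slc30a1 kept 1 and Slc30a10 kept 0, where 12.6% of the windows held at least 1 and 1.58% at least 2. A match describes letters, not binding, and RefSeq holds a further start of Mt1 and of Slc30a1 inside the printed windows, so each window follows only one start. Matches outside the windows were not counted, so the numbers need not cover the whole promoter of a gene.

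Mt1 was among the most abundant transcripts of the organoids. It reached 6487 CPM (6466–6507) in set 1 and 10885 CPM (10856–10913) in set 2, which ranked it 15th and 5th of all genes and amounted to 0.649% and 1.09% of all UMIs. Mt2, its neighbour on chromosome 8, reached 2176 CPM in set 1 and 2919 CPM in set 2. These 3′ counts do not scale with transcript length, so the order of the genes is one of counted molecules. How the authors' counting divided reads that paralogous metallothioneins could share is not given in the sources used here.

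Enterocyte-like cells held the most Mt1 of all classes in each set. Mt1 stood at 10505 CPM in these cells of set 1 (10405–10605) and at 16486 CPM in those of set 2 (16387–16586). Per single cell the median was 95.7 Mt1 UMIs per 10000 in set 1, with the central 90% of cells between 33.5 and 189, and 169 in set 2, between 70.3 and 270. The excess over all other kept cells was 1.69-fold (1.68–1.71) in set 1 and 1.64-fold (1.62–1.65) in set 2, under the 2-fold used to call a class difference. Counted molecules of Mt1 were thus spread over the whole epithelium rather than limited to its absorptive cells.

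Cells in G2 and mitosis, in S phase and in the other cells, which passed no gate, lay close together. Their Mt1 level ran from 6530 to 7223 CPM in set 1 and from 11040 to 12045 CPM in set 2. The ranges from the 25th to the 75th percentile of their single cells overlapped among these 3 classes, as the plot of Mt1 and Mt2 in single cells shows. Goblet and Paneth-like cells, the secretors of mucus and antimicrobial peptides, were lower at 4303 CPM in set 1 and 8390 CPM in set 2.

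Enteroendocrine-like cells, the hormone-secreting cells of the gut, held the least Mt1 and Mt2. Mt1 stood at 2209 CPM in set 1 (2163–2256) and 2539 CPM in set 2 (2492–2588), 3.07-fold (3.01–3.14) and 4.59-fold (4.50–4.67) below the other kept cells. Mt2 stood at 536 CPM (514–560) and 572 CPM (550–595), 4.27-fold and 5.48-fold below. The 75th percentile of single enteroendocrine-like cells, 25.2 Mt1 UMIs per 10000 in set 1 and 33.4 in set 2, lay below the 25th percentile of cells in G2 and mitosis, 42.6 and 70.9. These cells were also shallower, with medians of 14281 and 14920 UMIs, and the part of depth in the difference was not tested.

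A marker of these cells was counted in the other classes for comparison. Chgb, an enteroendocrine granin at 42963 and 37080 CPM in its own class, was found at 39.6 to 148 CPM in the other classes. Thinned to 5000 UMIs a cell, 17.4% to 40.2% of the cells of those classes had a Chgb UMI. The counts were uneven, and in the other cells of set 1, the class at 148 CPM, 3 cells held 34.8% of them. In the reverse direction, the enterocyte marker Fabp1 stood at 78.2 and 65.5 CPM in enteroendocrine-like cells, against 18626 and 18334 CPM in enterocyte-like cells. Apoa1, another such marker, stood at 30.9 and 30.7 CPM, against 818 and 1383 CPM. What free Mt1 adds to enteroendocrine-like cells was not measured.

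Within the enteroendocrine-like cells the low level held for each group of cells examined. Cells with at least 5 Neurog3 UMIs per 10000, the mark of endocrine precursors, had 1700 CPM of Mt1 in set 1 (69 cells) and 2870 CPM in set 2 (41 cells). Cells with at least 10 Tph1 UMIs, the enzyme of serotonin synthesis, had 2454 CPM (76 cells) and 2746 CPM (109 cells). Cells with at least 100 UMIs of peptide hormone genes had 2149 CPM (44 cells) and 1952 CPM (101 cells). The remaining 78 and 17 cells of the class had 2425 and 4153 CPM. In the peptide hormone cells of set 1 and the remaining cells of set 2, 3 cells held 55.1% and 64.1% of the Mt1 UMIs. Within each set, these 4 levels were below the Mt1 level of every class outside the enteroendocrine-like and revival-like cells.

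Revival-like cells, gated on a marker list of injured epithelium with Clu, Anxa1 and Ly6a, were the other class low in metallothionein. Anxa1 was among the 10 genes with the highest fold in this class, and Clu and Ly6a were not. Mt1 reached 3215 CPM in set 1 (3051–3386) and 3484 CPM in set 2 (3368–3603), and Mt2 reached 759 and 853 CPM. Mt1 was 2.02-fold and 3.17-fold below the other kept cells, and Mt2 was 2.88-fold and 3.47-fold below. These classes have only 23 and 25 cells. Median depth was 10868 UMIs in set 1 and 38105 in set 2, and the part of depth was not tested. In set 1 the log2 ratio of Mt1 to other cells, -1.02, ran from -1.33 to -0.59 over the alternative settings, on both sides of 2-fold. That of Mt2, -1.53, was -0.71 with the mean of single-cell CPM and -0.73 with no mitochondrial limit, no longer past 2-fold.

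**Figure D1:**
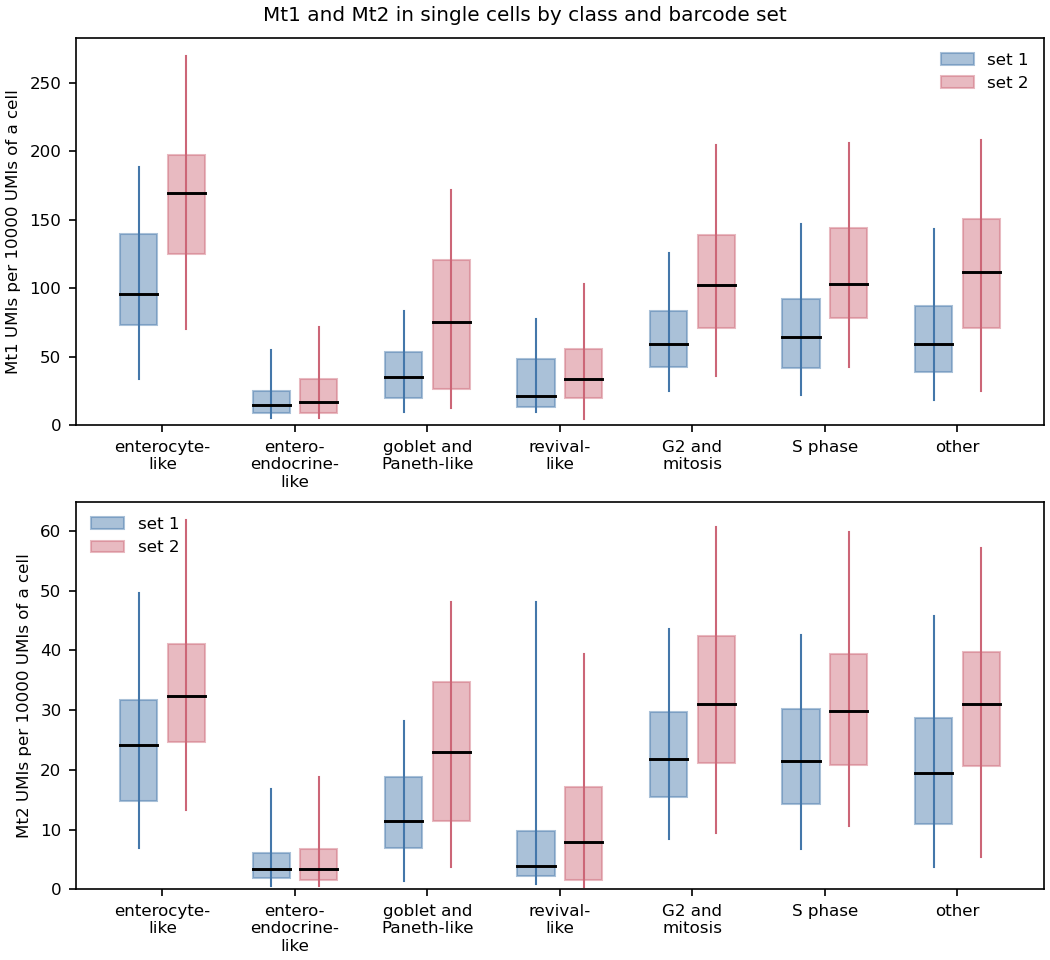
Mt1 (top) and Mt2 (bottom) UMIs per 10000 UMIs of a cell, by class, for barcode set 1 (blue) and set 2 (red). Boxes span the 25th to 75th percentile of single cells, black lines are medians and vertical lines run from the 5th to the 95th percentile. Enterocyte-like cells have the highest Mt1 medians (95.7 and 169) and enteroendocrine-like cells the lowest (14.7 and 16.9).

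Mt1 and Mt2 varied together from cell to cell. The correlation of their log-scaled UMIs was 0.787 over the 2300 cells of set 1 and 0.903 over the 1766 of set 2, and within classes it ran from 0.614 to 0.947. Mt2 was the closest of 10215 genes to Mt1 over single cells in both sets, followed by Dbi, which encodes an acyl-CoA-binding protein, at 0.550 and 0.724. These points share library, depth and scaling, so the correlations are descriptions.

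The balance between the paralogs shifted with class. Mt1 gave 4.53 UMIs for each Mt2 UMI in enterocyte-like cells of set 1 (4.43–4.63) and 4.90 in set 2 (4.83–4.98), against 2.78 (2.76–2.80) and 3.4 (3.38–3.43) in G2 and mitosis. Enteroendocrine-like cells, with little of either, had ratios of 4.12 and 4.44. The excess of enterocyte-like cells was accordingly smaller for Mt2, at 1.07-fold and 1.18-fold over other kept cells.

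Along the enterocyte programme both paralogs were higher in the bin of 100 to 300 marker UMIs than in the bins before it, and Mt2 was lower again in the last bin. Kept cells that passed no enteroendocrine, goblet, Paneth or revival gate were binned by their enterocyte marker sum, and Mt1 in set 1 ran from 6287 CPM in cells under 10 marker UMIs per 10000 to 10334 CPM at 100 to 300 and 10615 CPM at 300 or more. In set 2 it ran from 9785 to 17938 and then 15957 CPM. Mt2 was highest at 100 to 300, at 2736 CPM in set 1 and 4261 CPM in set 2, and lower at 300 or more, at 2051 and 3034 CPM. The last bin of each set holds 74 and 134 cells, and its cells carried a median of 14.4% and 14.5% mitochondrial UMIs, against 9.02% to 9.66% in the first 3 bins.

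Slc30a10 was the member most concentrated in one class. It encodes ZnT10, a transporter of the zinc exporter family that is known to carry manganese out of cells. Enterocyte-like cells held 46.3 CPM in set 1 (39.9–53.4) and 43.7 CPM in set 2 (38.7–49.1), 18.6-fold (14.9–23.3) and 25.3-fold (19.6–33.1) above the other kept cells. On the log2(CPM + 1) scale, which understates ratios of low levels, the differences were 3.76 and 4.04, and they were 1.76 and 2.13 with a mitochondrial limit of 10%, 2.17 and 2.19 with a pseudocount of 10 CPM, and 2.39 and 3.59 with the mean of single-cell CPM. They supplied 56.7% and 78.5% of all Slc30a10 UMIs although they were 5.70% and 10.5% of the cells. Of these cells, 62 of 131 and 115 of 186 had a Slc30a10 UMI, and without the 3 cells with most UMIs the level was still 37.9 and 39.6 CPM.

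Slc30a10 was lower in each of the other classes. The other cells, which passed no gate, came next in set 1 at 8.29 CPM (5.74–11.6) and held 2.91 CPM (1.78–4.5) in set 2. In G2 and mitosis it reached 2.02 and 1.67 CPM, in S phase 1.02 and 0.663 CPM. In goblet and Paneth-like cells no UMI was counted in set 1, where the limit taken for a count of 0, 3 counts, is 3.53 CPM and the exact interval ends at 4.35 CPM, and 1 UMI in set 2. Along the enterocyte marker sum it stayed between 1.25 and 4.35 CPM in the first 3 bins of both sets, then reached 13.3 and 15.7 CPM, and 67.6 and 53.9 CPM in the last bin. The 2 last bins were thus the ones in which Slc30a10 differed most, while Mt1 differed little between them in set 1 and was lower in the last one in set 2.

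Slc30a1 was also highest in enterocyte-like cells, by a smaller fold. It encodes ZnT1, the zinc exporter of the plasma membrane. Enterocyte-like cells held 34.9 CPM in set 1 (29.4–41.2) and 44.6 CPM in set 2 (39.6–50.1), 2.62-fold and 2.82-fold above other kept cells. Enteroendocrine-like cells came next among the larger classes with 79 and 99 UMIs, levels within 15.8 to 24.9 CPM and 18.8 to 28.2 CPM, above G2 and mitosis at 12.6 (11.5–13.7) and 15.1 (13.6–16.8). In enteroendocrine-like cells Slc30a1 was 1.39-fold (1.09–1.76) and 1.21-fold (0.974–1.49) the level of other kept cells. The median log2 difference of all genes tested was 0.32 in this class. Mt1 and Mt2 were at their lowest there, and the part of MTF1 was not tested. Across single cells Slc30a1 and Mt1 had a correlation of -0.0042 in set 1 and 0.049 in set 2, but Slc30a1 was counted in only 29.3% and 37.0% of cells.

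The importers Slc39a5 and Slc39a4 differed in their order over the classes. Slc39a5 encodes ZIP5, known as a zinc importer of the basolateral side of enterocytes. It reached 119 CPM (109–130) in enterocyte-like cells of set 1 and 134 CPM (125–143) in set 2, 2.21-fold (2.01–2.44) and 2.71-fold (2.5–2.94) above other kept cells. G2 and mitosis had 56.7 and 51.3 CPM, and S phase had 60.2 CPM in both sets. It was lowest in enteroendocrine-like cells, at 21.5 and 17.1 CPM, and in revival-like cells, at 6.74 and 7.12 CPM from 3 and 7 UMIs. The log2 ratio of revival-like to other cells, -2.94 in set 1 and -2.93 in set 2, was under 2-fold at -0.83 in set 1 with no mitochondrial limit and at -0.58 in set 2 with the mean of single-cell CPM.

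Slc39a4 was highest where Slc39a5 was lowest. Revival-like cells held 60.6 CPM in set 1 (39.9–88.2) and 67.1 CPM in set 2 (51.9–85.4), 4.61-fold (3.02–6.76) and 4.26-fold (3.26–5.48) above other kept cells. These levels rest on 27 and 66 UMIs, of which 3 cells gave 51.9% and 53.0%. Without the 3 cells with most Slc39a4 UMIs among all kept cells of a set, the log2 ratio was 1.73 instead of 2.12 in set 1. In set 2 it was 1.26 instead of 2.02. Those cells were not chosen within the class, and the ratio without the 3 top revival-like cells was not computed. Enteroendocrine-like cells followed at 37.5 CPM (31.7–44.0) and 27.6 CPM (22.9–33.1), 3.16-fold and 1.75-fold above other kept cells, so that 2-fold was passed in set 1 alone.

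Enterocyte-like cells, the class in which uptake of dietary zinc is known, held 23.8 CPM of Slc39a4 (19.3–29.0) in set 1 and 15.9 CPM (12.9–19.2) in set 2. The first value was 1.86-fold (1.49–2.31) the level of the cells outside the class. The second value did not exceed them, at 0.94-fold (0.76–1.16). In counted molecules, 5.02 and 8.45 Slc39a5 UMIs came with each Slc39a4 UMI in enterocyte-like cells, and 0.574 and 0.619 in enteroendocrine-like cells. Over the 14 levels of 7 classes in 2 sets, the correlation of the importers was -0.79. Within enterocyte-like cells Slc39a4 and Mt1 had correlations of -0.31 over 131 cells and -0.26 over 186, weak values on sparse counts.

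Mt4, known from stratified squamous epithelium, was rare and uneven. Over all kept cells it had 270 UMIs in set 1 (4.38 CPM) and 386 in set 2 (7.55 CPM). Enterocyte-like cells held 9.90 CPM in set 1 (7.08–13.5) and 37.9 CPM in set 2 (33.3–43.0), from 23 of 131 and 46 of 186 cells. In set 2 a single cell held 35 Mt4 UMIs, 3 cells held 37.3% of the class total, and the level without them was 23.8 CPM. In set 1 the level without 3 such cells was 6.93 CPM, against 4.29 CPM in G2 and mitosis, where no cell was left out. Leaving out the 3 cells with most Mt4 UMIs of each whole set gave log2 ratios of enterocyte-like to other cells of 1.34 and 2.57. With all cells these were 1.13 and 3.22. With a mitochondrial limit of 10% the difference of enterocyte-like from other cells turned in set 1, from a log2 ratio of 1.13 to -0.081, and stayed at 2.63 in set 2.

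Squamous marker genes were counted beside Mt4. The 7 markers summed to 5.11 and 12.0 CPM over all kept cells, with Krt5, Krt13, Krt14, Krt6a, Trp63, Sprr1a and Ivl as the list and 4 and 3 of them at 0. Of the enterocyte-like cells, 2 in set 1 and 10 in set 2 had both an Mt4 UMI and a squamous marker UMI. The part of such cells in the Mt4 level was not tested.

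**Figure D2:**
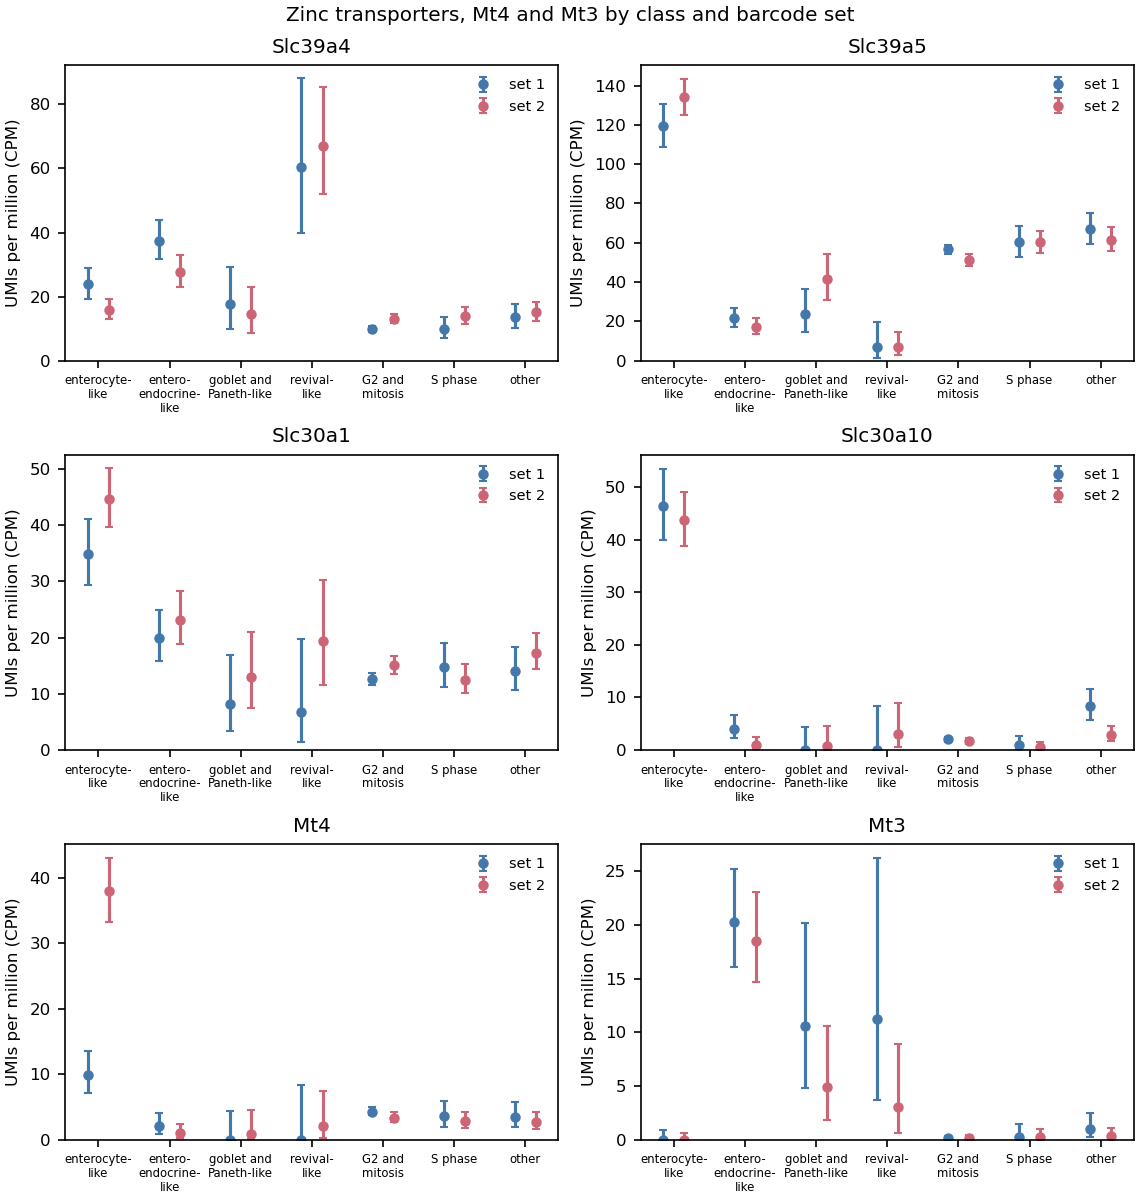
Levels in CPM of the 4 transporters, Mt4 and Mt3 by class, for set 1 (blue) and set 2 (red), each panel on its own axis from 0. Points are UMIs summed over the cells of a class and bars are exact 95% Poisson intervals. Slc30a10 stands out in enterocyte-like cells (46.3 and 43.7 CPM), Slc39a4 in revival-like cells (60.6 and 67.1 CPM) and Mt3 in enteroendocrine-like cells (20.3 and 18.5 CPM).

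Counted over classes, 16 of the 49 pairs of a member and a class lay past 2-fold from the other kept cells in both sets, on log2(CPM + 1). Of these 16, 11 fell under 2-fold in a set under at least 1 alternative setting. Among them were the 4 lower ones in revival-like cells and those of Mt4, Slc30a1 and Slc39a5 in enterocyte-like cells. In enterocyte-like cells 4 of 7 members were higher (Mt4, Slc30a1, Slc30a10 and Slc39a5) and 0 lower, where 4.88% of the 15474 genes with at least 10 UMIs were higher and 9.38% lower. The median log2 difference of the members was 1.28, against -0.24 over those genes. In enteroendocrine-like cells 0 were higher and 3 lower (Mt1, Mt2 and Slc39a5), against 21.3% and 7.39%. In revival-like cells 1 was higher (Slc39a4) and 4 were lower (Mt1, Mt2, Mt4 and Slc39a5), against 4.66% and 4.87%, with the call of Mt4 resting on 0 and 2 UMIs. The 0 UMIs of set 1 allow up to 6.74 CPM at 3 counts, above the 4.41 CPM of the other kept cells, so a lower Mt4 level was not detectable there and the call follows from the pseudocount.

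The other classes gave few pairs. Slc30a10 was lower in G2 and mitosis and in S phase, where 7.33% and 3.75% of genes were lower. With a mitochondrial limit of 10% these were under 2-fold, at log2 ratios of -0.92 and -0.60 in G2 and mitosis and -0.89 and -0.48 in S phase. Slc30a10 and Mt4 passed the call as lower in goblet and Paneth-like cells, against 2.89%, each from 0 UMIs in set 1 and 1 in set 2. In set 1 the limit of 3.53 CPM at 3 counts is too near the 5.43 and 4.44 CPM of the other kept cells to show a 2-fold difference, and these calls too follow from the pseudocount. No member was past 2-fold in the other cells, with 0.0582% of genes higher and 2.58% lower. Goblet and Paneth-like cells, G2 and mitosis and S phase had 0 members higher, against 0.775%, 1.15% and 0.595%.

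Further metal genes were taken from a list of 32, of which 30 were counted often enough. In enterocyte-like cells 8 of 30 were higher and 1 was lower, where 4.88% of all genes tested were higher and 9.38% lower. Slc11a2, the importer of ferrous iron at the brush border, stood at 360 CPM in set 1 and 232 CPM in set 2, 24.3-fold and 14.9-fold above other kept cells. Slc30a2, a vesicular zinc transporter, was 9.14-fold and 21.5-fold higher, Slc40a1, the iron exporter ferroportin, 8.22-fold and 6.38-fold, and Fth1, the ferritin heavy chain, 6.63-fold and 8.32-fold. The list as a whole had a median log2 difference of 0.16.

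Mt3, the metallothionein best known from brain, had the reverse distribution of Mt1. Enteroendocrine-like cells held 20.3 CPM in set 1 (16.1–25.2) and 18.5 CPM in set 2 (14.6–23.0), 67.2% and 78.2% of all its UMIs. Enterocyte-like cells of both sets had 0 Mt3 UMIs, where 3 counts would be 0.743 and 0.466 CPM and the exact intervals end at 0.913 and 0.573 CPM. The other list genes past 2-fold upward in enteroendocrine-like cells were the zinc importers Slc39a6 (5.12-fold and 3.33-fold) and Slc39a7 (2.80-fold and 2.25-fold) and Mtf1 itself (2.12-fold and 2.13-fold), in all 4 of 30 against 21.3% of all genes. As many, 4 of 30, were lower, against 7.39%: Slc11a2, Tfrc, the transferrin receptor, Fth1 and Cybrd1. Mtf1 reached 27.8 CPM (22.9–33.6) and 30.7 CPM (25.6–36.4) in enteroendocrine-like cells, and its part in the levels of Mt1 and Mt2 was not tested. In revival-like cells 2 of 30 were higher and 0 lower, a share near the 4.66% of all genes that were higher: Cybrd1, a reductase of dietary iron, at 20.6-fold and 10.5-fold, and Slc40a1 at 9.50-fold and 2.37-fold.

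**Figure D3:**
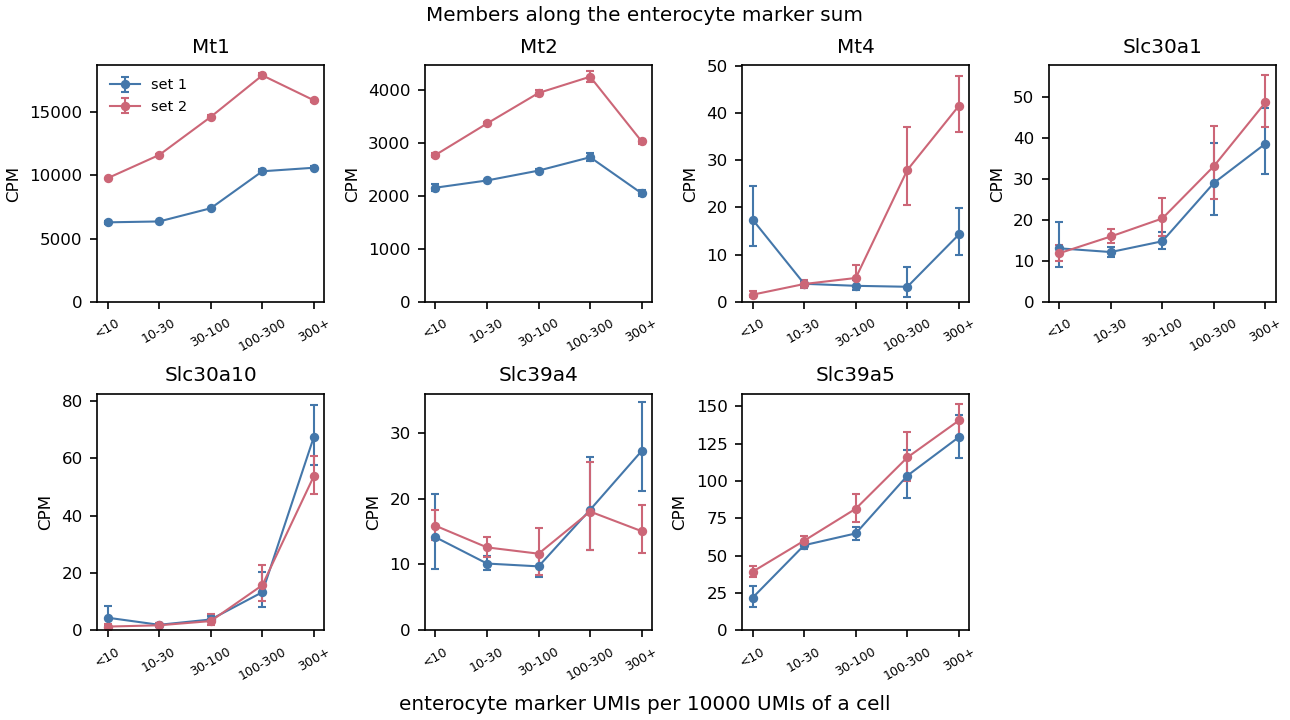
Levels in CPM of the 7 members (y axes from 0, one panel each) in kept cells outside the enteroendocrine, goblet, Paneth and revival gates, binned by enterocyte marker UMIs per 10000 UMIs of a cell (x axis), for set 1 (blue) and set 2 (red). Points are summed over the cells of a bin and bars are exact 95% Poisson intervals. Slc30a10 is highest in the last bin (67.6 and 53.9 CPM), whereas Mt2 is highest in the bin before it (2736 and 4261 CPM).

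The mitochondrial limit bears on the enterocyte-like values. These cells had a median of 13.2% and 14% mitochondrial UMIs, and a limit of 10% left 30 of 131 and 29 of 186 of them. Under that limit the log2 ratio of enterocyte-like to other cells in set 1 was 0.47 for Slc30a1 and 0.68 for Slc39a5 instead of 1.33 and 1.13, no longer past 2-fold. As CPM over genes outside the mitochondrial genome, Slc30a10 stood at 2.31 and 1.68 in barcodes of up to 10%, at 13.1 and 19.5 from 10% to 20%, and at 25.7 and 21.8 from 20% to 50%. Slc39a5 went from 58.1 and 52.8 to 139 and 123 over the same range. Mt1 had no such order, with 6733 and 11034 at up to 10%, 8084 and 14031 from 10% to 20%, and 7044 and 10436 from 20% to 50%. Barcodes above 50% had 26.9 and 21.5 for Slc30a10, 119 and 129 for Slc39a5, and 6805 and 7291 for Mt1. Both bins above the limit thus held more Slc30a10 and Slc39a5 than the bin of up to 10%, while Mt1 was slightly higher in set 1 and lower in set 2.

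Between the barcode sets, 2 of 7 members were at least 1.5-fold higher in set 2 with intervals apart (Mt1 and Mt4) and 0 were lower, where 2.46% of 15474 genes were higher and 1.4% lower. Mt1 was 1.68-fold (1.67–1.68) and Mt4 1.72-fold (1.47–2.02) higher in set 2. Mt4 had 14.8% and 23.6% of its UMIs in 3 cells, and without the 3 cells of each set it was no longer past 1.5-fold. Mt2 was 1.34-fold higher (1.33–1.35), Slc30a1 1.32-fold (1.21–1.45), Slc30a10 1.31-fold (1.12–1.52), Slc39a4 1.24-fold (1.13–1.37), and Slc39a5 1.03-fold (0.983–1.08). The direction of Slc30a10 turned, from a log2 ratio of 0.33 to -0.29, both with a mitochondrial limit of 10% and with the mean of single-cell CPM. The median log2 ratio was 0.38 for the members and 0.03 for all genes tested.

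Class sizes differed between the sets, with 59.1% of set 1 and 37.1% of set 2 in G2 and mitosis, so the ratios were also taken within classes. Mt1 was 1.57-fold (1.55–1.59) higher in set 2 among enterocyte-like cells, 1.69-fold (1.68–1.70) in G2 and mitosis, 1.58-fold (1.56–1.60) in S phase and 1.95-fold (1.88–2.03) among goblet and Paneth-like cells. The ratio was 1.15-fold (1.12–1.18) for enteroendocrine-like and 1.08-fold (1.02–1.15) for revival-like cells. The classes with least Mt1 thus also differed least between the sets. Mt2 ran from 1.07-fold in enteroendocrine-like to 1.87-fold in goblet and Paneth-like cells.

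The transporters had no common direction between the sets once classes were separated. Slc30a10 was 0.943-fold (0.781–1.14) in enterocyte-like cells, which were a larger share of set 2, and 0.351-fold (0.192–0.628) in the other cells. Slc39a4 was 1.33-fold (1.14–1.54) in G2 and mitosis but 0.667-fold (0.50–0.891) in enterocyte-like and 0.737-fold (0.574–0.945) in enteroendocrine-like cells. Slc30a1 was 1.28-fold (1.04–1.57) in enterocyte-like cells and 1.20-fold (1.05–1.38) in G2 and mitosis. Mt4 was 3.83-fold (2.73–5.49) higher in enterocyte-like cells of set 2 and 0.778-fold (0.588–1.02) in G2 and mitosis.

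**Figure D4:**
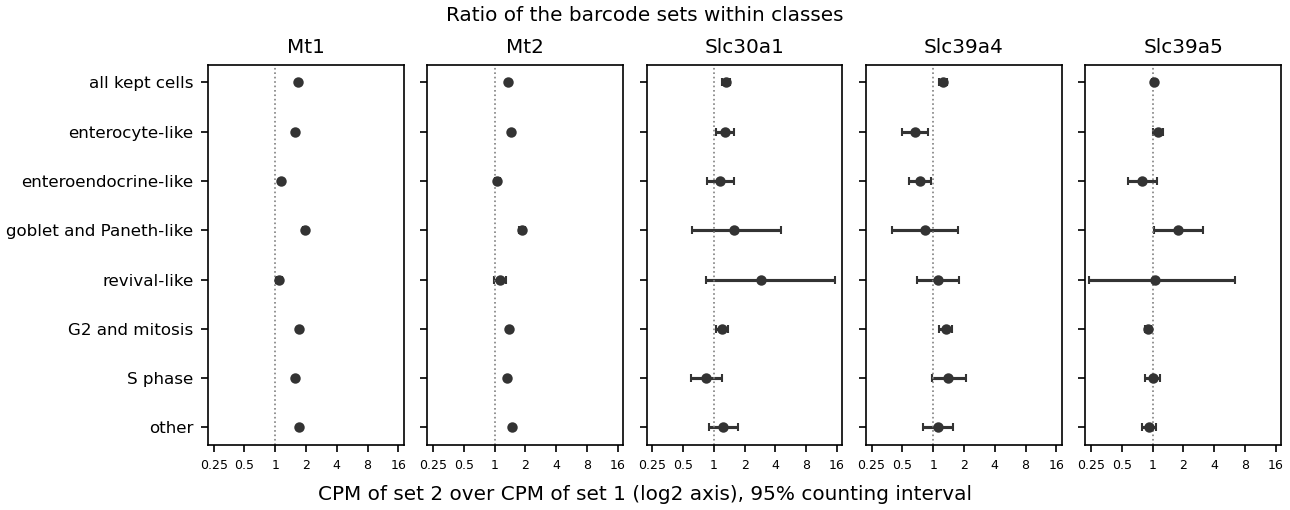
Ratio of CPM in set 2 over CPM in set 1 (x axis, log2 scale) for 5 members in all kept cells and in each class (y axis). Points are ratios of summed UMIs, bars are exact 95% conditional intervals of counting error, and the dotted line marks equal levels. Mt1 lies between 1.57 and 1.95 in 5 classes and at 1.15 and 1.08 in enteroendocrine-like and revival-like cells, while Slc39a4 lies on either side of 1.

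Genes of other lists were set beside Mt1 in the same comparison of the sets. Over all genes tested, 2.46% were higher in set 2 and 1.4% lower. Of the 30 further metal genes, 3 were higher in set 2 and 0 lower: Slc40a1 at 1.69-fold and the ferritin chains Ftl1 and Fth1 at 1.60-fold and 1.54-fold. None of the list was called with the mean of single-cell CPM, and 6 were with a pseudocount of 0.1 CPM. From a list of 8 genes driven by NRF2, the regulator of antioxidant defence, 4 were higher and 0 lower, with Srxn1 at 2.51-fold, Slc7a11 at 2.05-fold, and Gpx2 and Nqo1 both at 1.79-fold. Of 6 counted genes known to respond to glucocorticoids, which also induce metallothioneins, 2 were higher (Fkbp5 and Dusp1), and of 5 heat shock genes 1 was (Hspb1, 2.05-fold). Their part in the Mt1 difference was not tested.

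Genes whose levels most resembled those of the members were sought over the 14 class levels, among 10215 genes. For Mt1 they were Mt2 (0.969), Gstm1, Gstm3, Ces2a and Mgst1, and for Mt2 they were Mt1, Mgst1, Nlrp6, Gng11 and Ugt2b36. Slc30a10 was closest to Gstm4 (0.951), Adh6a, Fmo5, Rbp2 and Mertk, and Slc30a1 to Glt28d2 (0.945), Malrd1, Mocs2, Lonp2 and Ppfia3. Slc39a5 was closest to Hadh (0.983), Bdh1, H2-T3, 0610005C13Rik and mt-Nd3, and Slc39a4 to Lmna (0.968), Cystm1, Capzb, Hmox1 and Scarb2. For Mt4 they were Gstm4 (0.932), Mertk, Atp5g3, Fcgrt and 4931406C07Rik. Several of the 14 levels come from few cells of one library, so these likenesses are descriptions.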

How the data were processed

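The deposited matrix holds UMI counts per gene and barcode, whole numbers that are not normalized, made by the authors with a droplet-based 3′ protocol. Per the submitters' processing notes, bcl2fastq 2.20.0, Cell Ranger 3.1.0 and STAR 2.7.3a were used, and the genome build and annotation are not given in the sources used here. Of the gene identifiers, 30934 were found in the table of mouse gene names.

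Counts were summed per class and barcode set and divided by the total UMIs of those cells (CPM), and log2 ratios took a pseudocount of 1 CPM. A gene was called between sets past 1.5-fold with intervals apart, and between a class and the other kept cells past 2-fold in each set. Class gates, in marker UMIs per 10000, were 100 for enteroendocrine and enterocyte, 60 for goblet and for Paneth, 10 for revival and for G2 and mitosis, and 6 for S phase. They were read from the distributions of the marker sums, not from any member. Near the gate, from 0.5 to 2 times its value, lay 193 and 92 cells for enterocyte, 36 and 14 for enteroendocrine, and 255 and 226 for revival. The 146 cells that passed both the enteroendocrine and the revival gate were kept as enteroendocrine-like unless they passed a further gate, and 69 cells of other combinations were left out. No doublet caller was used. Instead the 5% of cells with most UMIs were left out in an alternative chosen after seeing the data.

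The members, the marker lists and the gene lists were chosen with earlier results of these data known. All 7 members are named, and list genes are named when past 2-fold, at most 4 per comparison. Where a count of 5 or fewer rested on list genes under 2-fold, they are named too, chosen after their values were seen. On simulated counts the calls between sets recovered 200 of 200 changed genes and called 0 of 15268 unchanged ones. These counts held counting error only, the model of the intervals, and every simulated fold was past the 1.5-fold limit. The changed genes came from a range of levels that leaves out Mt1, Mt4 and Slc30a10. The simulation thus checks the computation and says nothing of variation between cells or libraries. Scripts ran in Python 3.11.15 with numpy 2.4.6, scipy 1.17.1, pandas 2.3.3 and matplotlib 3.10.9.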

Additional observations from a re-analysis of the deposited data

Results flagged for a closer look

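Slc39a4, the gene of the zinc importer ZIP4, differed between the barcode sets in opposite directions by class. Its level in set 2 was 1.33-fold that of set 1 in cells in G2 and mitosis, with an interval of 1.14 to 1.54, and 0.667-fold in enterocyte-like cells, with an interval of 0.50 to 0.891. Enteroendocrine-like cells were also below 1, at 0.737-fold (0.574–0.945). The G2 and mitosis values rest on 430 and 298 UMIs and the enterocyte-like values on 96 and 102, of which 3 cells gave 22.9% and 15.7%. The difference between the classes was not tested, since each set is 1 library and cells are not replicates.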

How the results depend on the processing

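The count of members past 1.5-fold between the barcode sets, 2 as reported, was 1 with a mitochondrial limit of 10%, with the mean of single-cell CPM, without the 3 cells with most UMIs of a gene, and with a pseudocount of 10 CPM. Mt1 was the member called in each of these and Mt4 was lost. The count of further metal genes, 3 as reported, was 0 with the mean of single-cell CPM, 6 at a pseudocount of 0.1 CPM, and 5 after leaving out the 5% of cells with most UMIs. The count of member and class pairs past 2-fold, 16 as reported, was 10 with the mitochondrial limit of 10% and 9 with the pseudocount of 10 CPM. Mt4 turned direction in set 1, to a log2 ratio of -0.081 in enterocyte-like cells under the limit of 10%, and to 0.19 in revival-like cells when cells of 2 gates were put in a class (-2.44 as reported). Of 352 class values recomputed, 350 kept their sign and 315 stayed past 2-fold, but 11 of the 16 pairs fell under 2-fold in a set under some setting, such as Slc30a10 in goblet and Paneth-like cells of set 2 (-0.14 with the limit of 10%), and of 56 ratios between the sets 52 kept their sign. Over these settings the log2 ratio of set 2 over set 1 ran from 0.69 to 0.78 for Mt1, 0.38 to 0.46 for Mt2 and -0.29 to 0.38 for Slc30a10. Over all genes, 381 higher and 216 lower calls became 642 and 443 with a pseudocount of 0.1 CPM, 122 and 36 with 10 CPM, and 384 and 377 with the mean of single-cell CPM, a scale on which intervals were not required. The cause of these shifts was not tested.

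The smallest classes, with 23 to 41 cells a set, and the members under 20 CPM limit the precision, and shares of cells with a UMI moved with the depth to which cells were thinned. No paired analysis was possible because each label group holds 1 sample, the matrix columns carry no replicate and no test was run.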
